A study of Mus musculus with 12 samples.

Results

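A set of 9 genes for secreted proteins long known from the choroid plexus (ChP), the epithelial tissue in the brain ventricles that makes cerebrospinal fluid (CSF), were followed through the RNA libraries of this study. They were Enpp2, 1500015O10Rik, Clu, Ptgds, Sostdc1, Apoe, Apod, Vegfa and Epdr1, taken by symbol from the deposited expression table. All 9 were found among its 24327 usable gene names. The tissue was the lateral ventricle ChP of male mice that were heterozygous for Foxj1-Cre and for a floxed EGFP-L10a allele, aged 8 weeks by the study's methods and postnatal day 60 by the sample labels. Foxj1-Cre recombines in multiciliated epithelium, ChP epithelium and ependyma included, and the recombined allele puts EGFP on ribosomal protein L10a. All 12 libraries carried these same alleles and no other treatment. Lights went on at 7 a.m. and off at 7 p.m., and tissue from pools of 3 mice was taken at 9 a.m. or at 9 p.m. RNA pulled down with the tagged ribosomes (translating ribosome affinity purification, TRAP) and the RNA left unbound (supernatant) each gave a library, so that the 4 groups, TRAP 9 a.m., supernatant 9 a.m., TRAP 9 p.m. and supernatant 9 p.m., held 3 libraries each. The design asks whether a transcript differs between the light and the dark phase, and whether its level differs between TRAP and supernatant. The tag is made only in recombined cells, so the supernatant can also hold ribosome-bound RNA of other cells. Each library is scaled to its own reads, so a difference of TRAP from supernatant gives no ribosome-bound share of a transcript. Values are FPKM, reads scaled to the length of the gene and to the mapped reads of the library, as the authors computed them.

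The ChP epithelium is a secretory epithelium. Its cells release carrier proteins, enzymes and growth factor modulators across the apical membrane into the CSF. Enpp2 encodes autotaxin, a secreted lysophospholipase D that makes the lipid mediator lysophosphatidic acid. Clu (clusterin), Apoe (apolipoprotein E) and Apod (apolipoprotein D, a lipocalin) carry lipids, and clusterin also acts as an extracellular chaperone. Ptgds, lipocalin-type prostaglandin D synthase, makes prostaglandin D and binds small hydrophobic ligands in CSF, and in the brain it is also made by meningeal cells and oligodendrocytes. Sostdc1 (ectodin, USAG-1) antagonizes bone morphogenetic proteins and modulates Wnt signaling, and Vegfa is the vascular growth factor that keeps the fenestrated capillaries of the plexus. 1500015O10Rik, also called Ecrg4, encodes the propeptide augurin, and Epdr1 encodes an ependymin-related secreted glycoprotein.

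A secreted protein enters the endoplasmic reticulum through an N-terminal signal peptide with a hydrophobic core. The first 90 coding bases of the principal GENCODE M21 transcript are shown for 5 of the genes on whose levels or spread the results below turn. They are given 5′ to 3′ on the coding strand, and capitals mark the codons with T at the second position, all of which encode the hydrophobic residues phenylalanine, leucine, isoleucine, methionine or valine.
Enpp2: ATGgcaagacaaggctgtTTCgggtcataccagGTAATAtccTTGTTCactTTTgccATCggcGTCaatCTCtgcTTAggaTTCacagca
Clu: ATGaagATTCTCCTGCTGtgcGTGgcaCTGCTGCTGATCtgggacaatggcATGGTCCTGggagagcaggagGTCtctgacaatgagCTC
Ptgds: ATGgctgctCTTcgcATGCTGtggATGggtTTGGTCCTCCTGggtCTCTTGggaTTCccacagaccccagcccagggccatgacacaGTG
1500015O10Rik: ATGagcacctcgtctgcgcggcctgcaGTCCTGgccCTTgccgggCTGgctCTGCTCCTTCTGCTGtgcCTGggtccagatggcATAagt
Epdr1: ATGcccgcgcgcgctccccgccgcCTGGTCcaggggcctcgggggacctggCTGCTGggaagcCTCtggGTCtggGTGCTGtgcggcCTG
Clu had the most such codons of the 9 genes, 15 of its first 30, and Vegfa and Epdr1 the fewest, 10 each. Ptgds had 13, and Enpp2, 1500015O10Rik and Apod 12 each. The median of the 9 genes was 12, where the median of 21557 coding genes was 9. The longest unbroken run of these codons was 5 in 1500015O10Rik and Apod, and 2 in Enpp2 and Epdr1. The median run was 4 codons among the 9 genes and 2 among all coding genes. Of the 300-base promoter windows in the RefSeq table (250 bases before and 50 after a start, mouse GRCm38), 9 belonged to 6 of the genes, namely 1500015O10Rik, Ptgds, Apoe, Apod, Vegfa and Epdr1. Both strands were searched for the E-box CACGTG, its variant CACGTT and the D-box TTATGTAA, which the clock factors are known to use. The D-box letters occurred in the Ptgds window, and no other match was found in the 9. Over 32851 promoter windows, CACGTG was present in 7.15%, CACGTT in 4.68% and TTATGTAA in 0.94%.

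All 15 ChP epithelial markers were present at a mean FPKM above 1, with a summed level of 26321 to 56736 per library. Most of this sum was Ttr, which alone gave 20922 to 51514 FPKM. Several libraries stood apart in some values. The second supernatant 9 p.m. library had the highest macrophage marker sum (90.9 FPKM) and the highest erythroid marker sum (106 FPKM). Of the former, C1qa gave 34.7, Ctss 28.7 and C1qc 25.8 FPKM, while C1qb was at 0. Of the latter, Hba-a2 gave 62.3 and Hbb-bs 43.9 FPKM. The third TRAP 9 a.m. library listed 107 of the 2940 genes of median FPKM above 20 at 0, against 0 to 53 in the others. The first supernatant 9 a.m. library had the highest sum of 13 stromal markers (416 FPKM, against 126 to 225 in the other supernatants and 38.2 to 81.6 in TRAP). Without Mgp, which gave 243 FPKM of it, that sum was 173 FPKM, still the highest of the 12. Its sum of 12 endothelial markers was 102 FPKM, but Ly6c1 alone gave 76.4 FPKM of this, 6 of the 12 were at 0, and without Ly6c1 the sum of 25.3 FPKM was below the 27.5 FPKM of a TRAP library. MicroRNA genes took 31.9% to 75.4% of the summed FPKM per library, so ranks and shares below are among coding genes. The number of reads behind each value is unknown. With 3 libraries per group the limma p-values and intervals rest on the spread between pools. That spread is moderated for each gene towards a trend of spread with level, fitted over all genes tested. In such bulk samples, fewer cells of a type and less RNA per cell cannot be told apart.

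The 9 genes spanned more than 3 orders of magnitude. Enpp2 was the most abundant after Ttr, with a mean of 16146 FPKM over the 12 libraries, and ranked 2 among 19838 coding genes in every one of them. Apoe (mean 1209 FPKM, rank 7), Clu (835 FPKM, rank 13), Ptgds (834 FPKM, rank 14) and Sostdc1 (634 FPKM, rank 25) followed. 1500015O10Rik had a mean of 236 FPKM and rank 134. The remaining genes were far lower: Vegfa had a mean of 29.0 FPKM (rank 2105), Apod 18.7 FPKM (rank 3247) and Epdr1 10.6 FPKM (rank 5073). The description of the set as abundant ChP transcripts therefore held for 6 of the 9 genes by level in these libraries, and not for Vegfa, Apod and Epdr1.

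**Figure D1:**
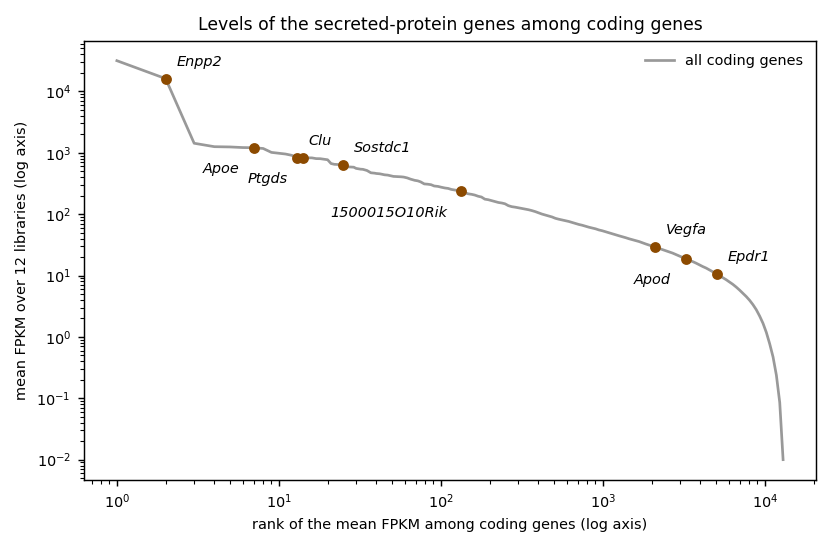
Mean FPKM over the 12 libraries (y axis, log scale) against rank among coding genes (x axis, log scale), with all coding genes as a gray line and the 9 secreted-protein genes as points. Enpp2 sits at 16146 FPKM at rank 2, 5 genes lie between ranks 7 and 134, and Vegfa, Apod and Epdr1 lie at ranks 2105 to 5073.

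Together the 9 genes made up 6.79% ± 0.28 of coding FPKM in TRAP 9 a.m., 6.29% ± 0.53 in supernatant 9 a.m., 6.24% ± 0.90 in TRAP 9 p.m. and 6.44% ± 0.04 in supernatant 9 p.m. (SD, n = 3). The 4 groups overlapped. Enpp2 supplied 64.7% to 85.3% of that sum, with a median of 82.5%. Without it the other 8 genes held 1.11% ± 0.10, 1.43% ± 0.54, 1.11% ± 0.14 and 1.22% ± 0.10 of coding FPKM in the same order of groups. In the first supernatant 9 a.m. library the share without Enpp2 was 2.04%, and it was 1.002% to 1.30% in the other 11.

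The order of the levels was headed by Enpp2 and then Apoe in all 4 groups. Enpp2 was 17.1-fold above Apoe in TRAP 9 a.m., 11.0-fold in supernatant 9 a.m., 15.2-fold in TRAP 9 p.m. and 11.4-fold in supernatant 9 p.m., and its libraries never overlapped those of Apoe. Below it Apoe, Clu, Ptgds and Sostdc1 were close neighbours. Apoe overlapped the next gene in every group except supernatant 9 p.m., where it was 1.69-fold above Clu with no overlap. Clu, Ptgds and Sostdc1 overlapped their neighbours among these 3 in each group, except that Clu lay 1.14-fold above Sostdc1 without overlap in TRAP 9 p.m. 1500015O10Rik was sixth in every group, apart from Sostdc1 or Ptgds above it in 3 groups and overlapping Sostdc1 in supernatant 9 a.m. The lowest places changed hands. Epdr1 was seventh in TRAP 9 a.m., where it overlapped Vegfa (1.17-fold), and ninth in the other 3 groups, where Vegfa was seventh and Apod eighth. Without the third TRAP 9 a.m. library Epdr1 had a mean of 15.1 FPKM there, below the 31.8 FPKM of Vegfa.

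**Figure D2:**
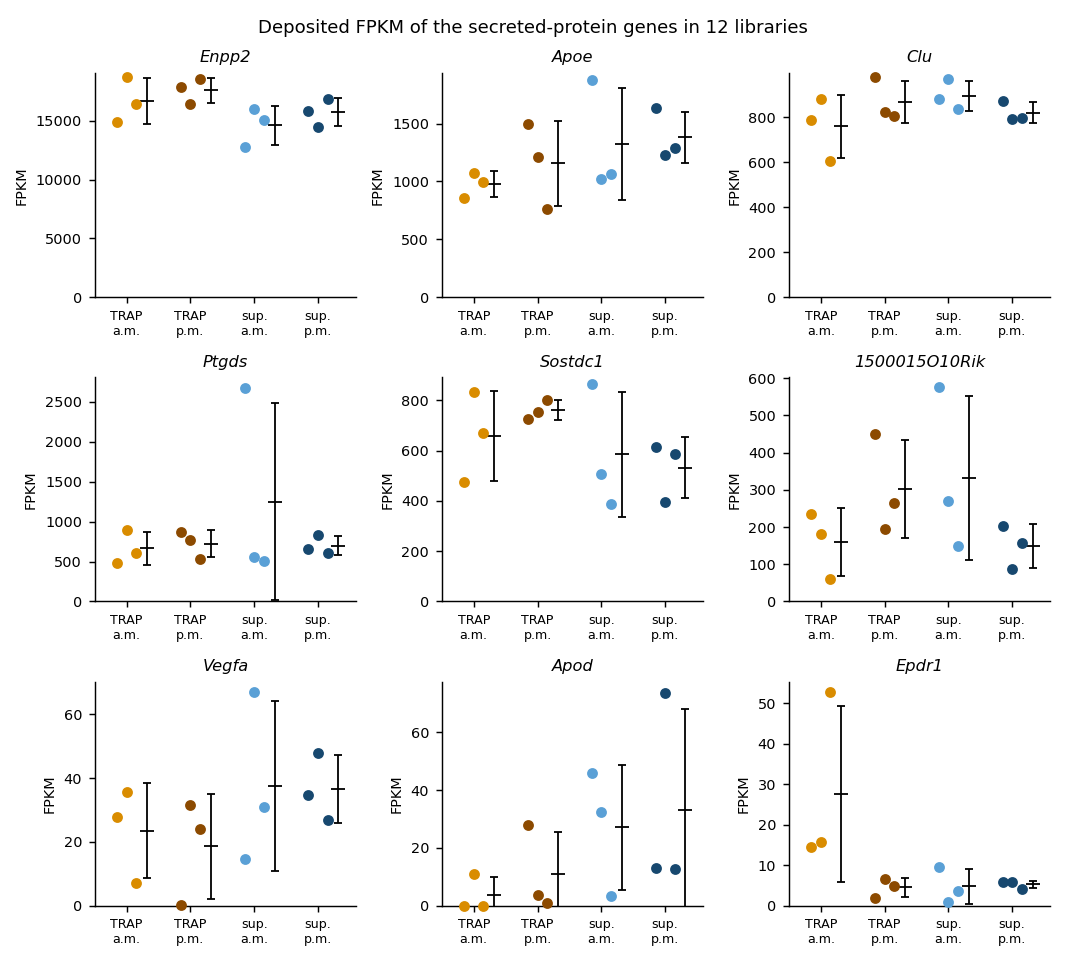
FPKM (y axis, linear from 0) of each gene in the 4 groups of time and fraction (x axis; sup., supernatant), with a point per library and, to the right of each group, a black bar for the mean ± SD of 3 libraries (bars reaching below 0 are not drawn further). Enpp2 and Clu stay within narrow ranges, while Ptgds has a single library at 2673 FPKM and Epdr1 a single library at 52.8 FPKM.

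Enpp2 (chromosome 15, 54838901 to 54952892, minus strand, 25 exons in the principal transcript) was also the steadiest. Its FPKM was 14886, 18732 and 16409 in TRAP 9 a.m. and 17826, 16447 and 18526 in TRAP 9 p.m. In the supernatant it was 12755, 15966 and 15084 at 9 a.m. and 15838, 14459 and 16824 at 9 p.m. The groups overlapped in each comparison, and the highest library was 1.47-fold above the lowest. At 9 p.m. against 9 a.m. the log2 fold change was 0.08 in TRAP (95% interval -0.75 to 0.91) and 0.11 in the supernatant (-0.59 to 0.81). TRAP against supernatant over both times gave 0.18 with an interval of -0.12 to 0.47 (limma, adjusted p = 0.75). These intervals leave room for a difference of either sign between times. Their width comes in part from the trend of spread with level over other genes, and not from the Enpp2 libraries alone. There were 0 other genes of like level, so that trend rests on genes of other levels. In TRAP between times the residual SD of Enpp2 was 0.13, while the SE in the moderated fit was 0.38. In TRAP, the time difference was -0.04 after quantile normalization and -0.16 with coding genes rescaled to equal sums. A lncRNA gene that is not in the table overlaps Enpp2 on the opposite strand, and the strand setting of the counting is not given in the sources used here.

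Of the lipid carriers, Clu (chromosome 14, 65968483 to 65981547, plus strand, 9 exons) was nearly as steady as Enpp2. It read 787, 882 and 605 FPKM in TRAP 9 a.m., 881, 967 and 835 in supernatant 9 a.m., 976, 823 and 803 in TRAP 9 p.m. and 871, 792 and 795 in supernatant 9 p.m. Groups overlapped in each comparison, with the third TRAP 9 a.m. library lowest. The SD of Clu within groups was 0.17 on the log2 scale, where 20 genes of like level had a median of 0.31 and none a smaller one. TRAP against supernatant over both times gave -0.09 (interval -0.42 to 0.24).

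Apoe (chromosome 7, 19696109 to 19699188, minus strand, 4 exons) varied more. Its FPKM was 857, 1076 and 1000 in TRAP 9 a.m., 1879, 1023 and 1063 in supernatant 9 a.m., 1493, 1213 and 761 in TRAP 9 p.m., and 1632, 1226 and 1286 in supernatant 9 p.m. The fractions overlapped at both times, and the highest value came from the first supernatant 9 a.m. library. The difference of TRAP from supernatant was -0.38 on the log2 scale at 9 a.m., -0.30 at 9 p.m. and -0.34 over both (interval -0.77 to 0.09, adjusted p = 0.685 in limma). Without the first supernatant 9 a.m. library it was -0.10 at 9 a.m. and -0.21 over both times.

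Apod (chromosome 16, 31296192 to 31314808, minus strand, 6 exons) had the largest difference between fractions of the 9 genes over both times. It was listed at 0, 11.1 and 0 FPKM in TRAP 9 a.m. and at 45.8, 32.3 and 3.50 in supernatant 9 a.m. At 9 p.m. it was 27.9, 3.73 and 1.03 in TRAP and 13.2, 73.7 and 12.7 in the supernatant. TRAP values were mostly lower, but at each time 1 TRAP library lay above the lowest supernatant library. On the log2(FPKM + 1) scale TRAP differed from supernatant by -3.06 at 9 a.m., -1.90 at 9 p.m. and -2.48 over both times (SE 0.89, interval -4.38 to -0.59). The unadjusted p over both times was 0.0136 and the adjusted p 0.548 in limma, so the difference did not pass. Because 2 TRAP libraries were at 0, no fold change is given for the 9 a.m. groups on the FPKM scale. Some marker sums of other cells differed between the fractions. The 13 stromal markers, all of mean FPKM above 1, summed to 38.2 to 81.6 FPKM in TRAP and 126 to 416 in the supernatant, without overlap. Mgp was at 0 in 5 of the 6 TRAP libraries, and without it the sums overlapped (38.2 to 64.8 FPKM in TRAP and 60.8 to 173 in the supernatant). The 12 oligodendrocyte markers summed to 4.86 to 73.0 FPKM in TRAP and 19.9 to 82.1 in the supernatant, and overlapped, with Olig1, Olig2 and Opalin at 0 everywhere. The 14 macrophage markers summed to 0.069 to 7.399 FPKM in TRAP and 7.70 to 90.9 in the supernatant, with Cd68, Pf4 and Tyrobp at 0 everywhere. The highest macrophage sum was that of the second supernatant 9 p.m. library, in which Apod was also highest (73.7 FPKM). The part of these cells in the Apod values was not tested.

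Ptgds (chromosome 2, 25466709 to 25470046, minus strand, 8 exons) stood out through 1 library. Its FPKM was 486, 898 and 611 in TRAP 9 a.m., 872, 767 and 537 in TRAP 9 p.m. and 651, 831 and 612 in supernatant 9 p.m. In supernatant 9 a.m. it was 2673, 563 and 507, so that the first library was 2.98-fold above the highest of the other 11 and Ptgds ranked 3 among coding genes there. The remaining 11 libraries overlapped in all groups. The same library had the highest value of the 12 for 4 of the 9 genes (Ptgds, Apoe, Sostdc1 and 1500015O10Rik) and the lowest for Enpp2. It also had the highest stromal marker sum, with or without Mgp, although Lum was at 0 and Dcn at 20.4 FPKM, below the 34.4 FPKM of the second supernatant 9 a.m. library. The 12 oligodendrocyte markers summed to 77.7 FPKM in the first supernatant 9 a.m. library. Their highest sum, 82.1 FPKM, was in the third one, where Ptgds was at 507 FPKM. The part of stromal cells and oligodendrocytes in these values was not tested. With all libraries Ptgds in TRAP against supernatant at 9 a.m. was -0.51 on the log2 scale. Without the first supernatant 9 a.m. library it was 0.27. Its 9 p.m. against 9 a.m. difference in the supernatant likewise went from -0.40 to 0.37. None of these values passed the test (adjusted p = 0.886 and 0.978 in limma with all libraries, 0.947 and 0.981 without that one).

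**Figure D3:**
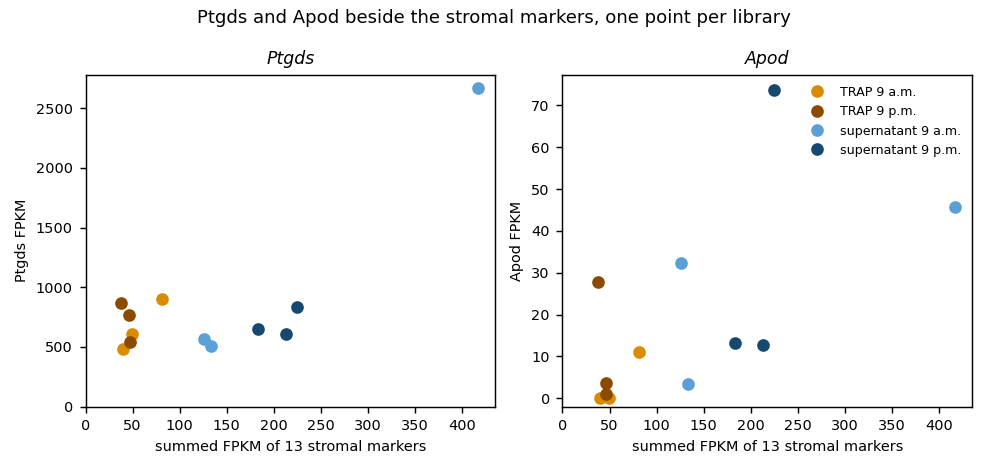
FPKM of Ptgds (left) and Apod (right) on the y axes against the summed FPKM of 13 stromal markers on the x axis, with a point per library colored by group. Ptgds is at 486 to 898 FPKM in 11 libraries and at 2673 FPKM in the library whose stromal sum is 416 FPKM, and the TRAP libraries all lie at stromal sums of 81.6 FPKM or less.

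Of the signaling modulators, Sostdc1 (chromosome 12, 36314139 to 36318452, plus strand, 2 exons) read 475, 832 and 668 FPKM in TRAP 9 a.m. and 864, 506 and 387 in supernatant 9 a.m. At 9 p.m. it was 726, 754 and 803 FPKM in TRAP and 616, 394 and 586 in the supernatant. The fractions overlapped at 9 a.m. and did not at 9 p.m., where every TRAP library was above every supernatant library. Of all 10924 genes tested at 9 p.m., 11.9% had groups that did not overlap and 4.9% had TRAP above supernatant without overlap. The 9 p.m. difference was 0.54 on the log2 scale (SE 0.27, interval -0.06 to 1.14), with an unadjusted p of 0.0738 and an adjusted p of 0.818 in limma. With single libraries left out the 9 p.m. difference ran from 0.34 to 0.66. Over both times it was 0.38 (interval -0.09 to 0.84). There it ran from 0.27 to 0.54 with single libraries left out, and was 0.54 without the first supernatant 9 a.m. library, in which Sostdc1 was highest. At 9 a.m. the difference was 0.21 with that library and 0.54 without it, and the lowest value with another single library left out was -0.043.

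Vegfa (chromosome 17, 46016993 to 46032369, minus strand, 8 exons) was low and uneven. It read 27.9, 35.8 and 7.01 FPKM in TRAP 9 a.m., 14.7, 66.9 and 30.9 in supernatant 9 a.m., 0.232, 31.5 and 24.0 in TRAP 9 p.m., and 34.6, 47.9 and 26.8 in supernatant 9 p.m. The groups overlapped in each comparison, and the first TRAP 9 p.m. library was 30.3-fold below the next lowest of the 12. The TRAP time difference of -1.03 on the log2 scale became 0.48 without that library. TRAP against supernatant at 9 p.m. went from -1.87 to -0.36, and over both times from -1.27 (interval -2.81 to 0.28) to -0.53. No Vegfa value passed the test under either choice of libraries.

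1500015O10Rik (chromosome 1, 43730602 to 43742578, plus strand, 4 exons) had time differences of opposite sign in the 2 fractions. In TRAP it was 236, 183 and 59.1 FPKM at 9 a.m. and 449, 195 and 264 at 9 p.m., a mean of 159 ± 90.7 against 303 ± 132 (SD, n = 3). In the supernatant it was 576, 270 and 150 FPKM at 9 a.m. and 204, 86.4 and 156 at 9 p.m., a mean of 332 ± 220 against 149 ± 58.9 (SD, n = 3). Libraries of the 2 times overlapped in both fractions. The 9 p.m. against 9 a.m. difference was 1.05 on the log2 scale in TRAP (interval -0.07 to 2.17) and -1.02 in the supernatant (interval -2.05 to -5.25e-05). The difference between these 2, the interaction of time and fraction, was 2.08 (SE 0.79, interval 0.38 to 3.78), with an unadjusted p of 0.02 and an adjusted p of 0.988 in limma. It lay between 1.48 and 2.54 when single libraries were left out. It was 1.48 without the third TRAP 9 a.m. library, in which 1500015O10Rik was lowest of the 12, and 1.57 without the first supernatant 9 a.m. library, in which it was highest. The TRAP time difference was 0.46 without the former and the supernatant one -0.52 without the latter. An antisense gene that is not in the table overlaps the span of 1500015O10Rik on the opposite strand. Exons were not compared and the strand setting of the counting is not given, so whether its reads enter these values is unknown. The study drew this gene and Epdr1 from these same libraries, and their directions are not independent evidence.

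Epdr1 (chromosome 13, 19591706 to 19619927, minus strand, 3 exons) was the lowest of the 9 genes. It read 14.6, 15.6 and 52.8 FPKM in TRAP 9 a.m., and in the other 9 libraries it lay between 1.03 and 9.65. All TRAP 9 a.m. libraries were above those of every other group. The supernatant read 9.65, 1.03 and 3.61 FPKM at 9 a.m. and 5.81, 5.75 and 4.19 at 9 p.m., and TRAP 9 p.m. read 1.99, 6.67 and 4.98. TRAP 9 a.m. was thus apart both from TRAP 9 p.m. and from supernatant 9 a.m., where 2.93% and 3.25% of all tested genes were apart in those directions. TRAP exceeded supernatant at 9 a.m. by 2.38 on the log2(FPKM + 1) scale (SE 0.94, unadjusted p of 0.0266, adjusted p = 0.886 in limma), and differed from it by -0.27 at 9 p.m. The interaction was -2.64 (SE 1.22, interval -5.25 to -0.04), with an adjusted p of 0.988 in limma. Without the third TRAP 9 a.m. library, in which 107 abundant genes were at 0, the 9 a.m. difference was 1.80 and the interaction -2.07. That library also had the highest sum of 10 hepatocyte markers (731 FPKM, against 0.636 to 146 elsewhere) and, with 73.0 FPKM, the highest oligodendrocyte sum of the TRAP libraries, and the part of these in the Epdr1 value was not tested. The other 2 TRAP 9 a.m. libraries alone were still above the highest value of any other group.

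All 9 genes passed the filter of a mean FPKM above 1 and were tested in each comparison. Between 9 p.m. and 9 a.m. in TRAP, 0 of the 9 were called, as were 0% of 10563 genes. The study reported transcripts that differed between these times in TRAP, by another test (CuffDiff) at the same thresholds. The 0 calls of limma on FPKM are thus no evidence that nothing changed. At an unadjusted p under 0.05 there was 1 of the 9 (Epdr1), where 3.96% of all genes reached it, and 1 of the 9 had groups without overlap, where 8.63% of all genes had. The log2 fold change was above 0 for 7 of the 9, as for 56.9% of all genes, with a median of 0.19 against 0.16 over all genes. Relative to that shift of all genes 5 of the 9 were higher, and after quantile normalization, which moved the median of all genes to -0.02, 3 of the 9 were above 0. In the supernatant 0 of the 9 were called, against 0.00903% of 11075 genes. There 1 of the 9 (1500015O10Rik) reached an unadjusted p of 0.05, against 3.28% of all genes, 0 of the 9 were without overlap, against 8.7%, and 5 of the 9 differences were above 0, against 51.8%.

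The study compared these fractions by another test (DESeq2) at the same thresholds and reported transcripts that differed. Few calls of limma on FPKM are thus no evidence that the fractions were alike. Between TRAP and supernatant at 9 a.m., 0 of the 9 were called, against 0.0463% of 10796 genes. At an unadjusted p under 0.05 there were 2 (Apod and Epdr1), against 4.5% of all genes, and 1 was without overlap, against 10.1%. The differences were above 0 for 3 of the 9 (Enpp2, Sostdc1 and Epdr1), against 41.8% of all genes. At 9 p.m., 0 of the 9 were called, against 0.0275% of 10924 genes, and 1 (1500015O10Rik, 1.02 on the log2 scale, unadjusted p of 0.03) was under 0.05 unadjusted, against 5.68%. Over both times 0 of the 9 were called, against 0.108% of 11156 genes, with 1 (Apod) under 0.05 unadjusted, against 7.72%. In the interaction 0 of the 9 were called, against 0.00896%, and 2 (1500015O10Rik and Epdr1) were under 0.05 unadjusted, against 3.85%. Quantile normalization turned the sign of 4 of the 9 differences at 9 p.m. (Enpp2, Clu, Ptgds and Epdr1). The comparisons at one time share libraries with those within a fraction, so their counts are not separate pieces of evidence.

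**Figure D4:**
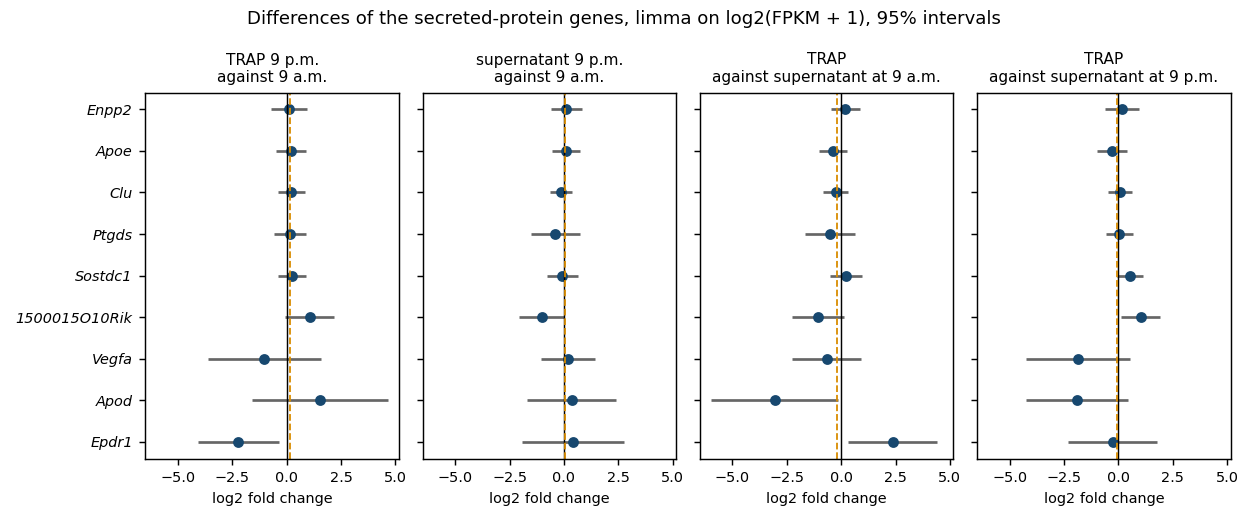
Log2 fold change (x axis, on the log2(FPKM + 1) scale, points) with 95% intervals (lines) of the 9 genes in 4 comparisons (panels), with 0 as a black line and the median of all tested genes as a dashed line. The intervals are narrow for Clu and wide for Apod (-5.97 to -0.15 for TRAP against supernatant at 9 a.m.) and Vegfa.

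The pathways around these genes were read in 7 lists. Of 18 other genes of the autotaxin axis, 5 to 8 were tested in a comparison and 0 were called. Its most abundant members were the transmembrane relative Enpp5 (70.0 ± 18.1 to 113 ± 17.6 FPKM over the 4 groups) and Ppap2a, which dephosphorylates lysophosphatidic acid (16.3 ± 17.6 to 45.7 ± 48.3 FPKM, SD, n = 3). By group means Enpp2 was 141-fold to 209-fold above Enpp5. Of 24 apolipoproteins, lipoprotein enzymes and receptors, 18 or 19 were tested and 0 called. The endocytic receptor Lrp1 was at 131 ± 43.9 to 178 ± 13.5 FPKM and the phospholipid transfer protein Pltp at 112 ± 15.8 to 192 ± 46.2 FPKM (SD, n = 3). In TRAP between times the median of this list was -0.32, against 0.16 over all genes, with 6 of 18 above 0. The list includes the hepatocyte markers Apoa1 (-2.19) and Apoa2 (-2.53). Both were highest in the third TRAP 9 a.m. library, at 30.0 and 365 FPKM. Of 22 prostaglandin genes 8 to 11 were tested and 0 called, with prostacyclin synthase Ptgis (38.7 ± 13.1 to 66.5 ± 28.9 FPKM) and the transporter Abcc4 (30.1 ± 7.13 to 49.9 ± 19.8 FPKM) the most abundant, and the D synthase was 10.9-fold to 32.2-fold above Ptgis by group means, and at most 17.7-fold without the first supernatant 9 a.m. library.

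Of 22 VEGF and hypoxia genes, 17 to 19 were tested and 0 called. Vegfb was more abundant than Vegfa, at 49.2 ± 26.6 and 59.4 ± 14.96 FPKM in TRAP and 109 ± 12.9 and 92.0 ± 25.7 FPKM in the supernatant (9 a.m. and 9 p.m., SD, n = 3). It differed between fractions by -0.95 on the log2 scale over both times (limma, adjusted p = 0.448). The hypoxia-inducible factor Epas1 was at 144 ± 8.11 to 191 ± 17.1 FPKM. Of 32 BMP and Wnt genes around Sostdc1, 21 to 23 were tested and 0 called. Their median difference of TRAP from supernatant over both times was -0.27, against -0.13 over all genes, while that of Sostdc1 was 0.38. Ctnnb1 (beta-catenin) was at 124 ± 58.0 to 153 ± 30.7 FPKM and the ligand Bmp7 at 85.5 ± 19.2 to 116 ± 11.8 FPKM, both below Sostdc1. Of 31 genes of the secretory pathway, which moves these proteins into the endoplasmic reticulum and beyond, 28 or 29 were tested and 0 called, with Srp14 (87.9 ± 77.0 to 178 ± 56.6 FPKM) and Sec62 (70.5 ± 34.4 to 123 ± 34.2 FPKM) the most abundant. Its median in TRAP between times was 0.28, against 0.16 over all genes, with 18 of 29 genes above 0, where 56.9% of all genes were.

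Of 23 other secreted proteins known in ChP, 18 to 20 were tested, and 1 call was made in all comparisons of the 7 lists. Igf2, an insulin-like growth factor, was at 822 ± 131 and 765 ± 212 FPKM in TRAP and 1818 ± 429 and 1459 ± 124 FPKM in the supernatant (9 a.m. and 9 p.m., SD, n = 3), and was lower in all 6 TRAP libraries than in any supernatant library. Its difference over both times was -1.04 on the log2 scale (SE 0.18, adjusted p = 0.0258 in limma). With each pool as a replicate block the adjusted p was 0.227, and over all other settings it ran from 0.00371 to 0.528. The call was lost in 10 of the 12 fits without a single library. The stromal marker sums given above were also higher in the supernatant, with an overlap once Mgp was left out, and their part in the Igf2 values was not tested. Apoe, at a like level, differed by -0.34 in the same direction without passing. Ttr, the thyroid hormone carrier that heads the table, was at 26732 ± 3454 to 44467 ± 10070 FPKM, 1.64-fold to 2.53-fold above Enpp2 by group means.

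The genes whose pattern over the 12 libraries was most like that of each secreted-protein gene were found by the mean absolute difference of centered log2(FPKM + 1) values among 11155 genes. Among the 2 genes nearest to Enpp2 was the kinesin heavy chain Kif5b (0.124), where the median over all genes was 0.93. The mean absolute deviation of Enpp2 from its own mean was 0.119, so a gene without any variation would lie nearer than Kif5b. Clu was nearest to the epithelial chloride channel gene Clic6 (0.103) and to Reep5 (0.116). Its deviation from its own mean was 0.119, so both were little nearer than a gene without any variation. Sostdc1 was nearest to Gnas (0.18) and Tcn2 (0.18), and Apoe to the chaperone Calr (0.18) and to Nub1 (0.20). Ptgds was nearest to Sparc (0.27), a matrix glycoprotein, and to Scaf4 (0.29). The more variable genes had more distant neighbours. 1500015O10Rik was nearest to Ergic3 (0.35) and the ciliary gene Rsph9 (0.35), Vegfa to Sephs1 (0.41) and Tox4 (0.44), Epdr1 to Hcfc1r1 (0.54) and Tgs1 (0.55), and Apod to Vtn (0.69) and Aatf (0.87). Among the 9 genes themselves the nearest pair was Enpp2 and Clu (0.17), then Enpp2 and Sostdc1 (0.28) and Clu and Apoe (0.29), and the most distant was Apod and Epdr1 (2.32). All values of a pair come from the same libraries and share their scaling.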

How the data were processed

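RNA of the lateral ventricle ChP was measured in 12 libraries, TRAP and supernatant at both times of day, each from a pool of 3 mice. Every library was placed by its sample labels, and Cre-negative controls were not analysed here. The library kit was SMARTer Pico, with ribodepletion. STAR 2.4.0 placed 50-nt single-end reads on mm10, and the authors deposited FPKM from Cuffquant. Neither the annotation version nor the strand setting is given in the sources used here. FPKM are relative to all mapped reads of a library, so a few abundant genes can shift all others, and depth is unknown.

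After 27 names turned into dates were dropped from 24354 genes, 24327 remained, and 9753 of those had 0 in all libraries. GENCODE M21 (GRCm38) names covered 23289 (95.7%) and gave coordinates, biotypes and coding sequence. Genes of mean FPKM above 1 in a comparison were tested on log2(FPKM + 1) in limma 3.58.1 (R 4.3.3, intensity trend), with Benjamini-Hochberg adjustment over all of them. A gene was called where its adjusted p was below 0.05 and its log2 fold change passed 0.4 in size for times and the interaction, or 0.3 for fractions. The test was tried on simulated data first. This scale understates the fold changes of low genes. At each coding start 30 codons were read.

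The genes, lists and rules were chosen with earlier results of these data known. All 9 genes are named, and of each list the called genes or, with fewer than 2, the 2 of highest mean FPKM. TRAP and supernatant samples that share a time and a number carry one animal number in the labels, which pairs them. The deviations of paired samples from group means were nearly unrelated (r from -0.075 to -0.014 across 11156 genes, which are not independent replicates), and the block was run as an alternative. Other alternatives were the pseudocount, the filter, scaling, trend, robust variance and each library left out. Those for Igf2, marker sums without Mgp or Ly6c1, and group means without a library were added after the values were seen. A coding start and a gene of like pattern are not reported here. Plotting used matplotlib 3.10.9 in Python 3.11.15.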

Additional observations from a re-analysis of the deposited data

How the results depend on the processing

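No alternative called any of the 9 genes in any comparison (limma), and their lowest adjusted p was 0.437, for Apod over both times without the first TRAP 9 p.m. library. Read depth is unknown, so no counting error can be given, also for the low values of Vegfa, Apod and Epdr1. Scaling decided small signs. It moved the median of all genes in TRAP between times from 0.16 to -0.02 (quantile) and -0.04 (coding genes only, rescaled to equal sums). Under quantile normalization the TRAP time difference turned to -0.037 for Enpp2, -0.11 for Ptgds, -0.00383 for Sostdc1 and -0.18 for Apoe, and with coding genes rescaled to -0.16 for Enpp2, -0.037 for Clu, -0.10 for Ptgds and -0.050 for Apoe. TRAP against supernatant at 9 p.m. turned to -0.00502 for Enpp2, -0.16 for Clu, -0.27 for Ptgds and 0.15 for Epdr1 under quantile normalization, and to -0.040 for Enpp2, -0.13 for Clu and -0.17 for Ptgds with coding genes rescaled. The interaction of Apoe turned to -0.53 and -0.18 under these settings. Beyond the scaling itself, the cause was not tested.

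The share of the 9 genes was 6.24% in TRAP 9 a.m., 4.87% in supernatant 9 a.m. and 6.004% in supernatant 9 p.m. with all genes other than microRNA genes as denominator. Without Enpp2 it was 1.11% in TRAP 9 a.m., 1.43% in supernatant 9 a.m., 1.11% in TRAP 9 p.m. and 1.22% in supernatant 9 p.m.

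Leaving out single libraries turned 38 signs, all of differences that had not passed. The ranges were, in TRAP between times, -0.060 to 0.38 for Ptgds, -0.019 to 0.47 for Apoe and -1.88 to 0.48 for Vegfa. In the supernatant between times they were -0.83 to 0.37 for Ptgds, -0.34 to 0.24 for Sostdc1, -0.35 to 0.70 for Vegfa, -0.044 to 0.39 for Apoe, -0.18 to 1.02 for Epdr1 and -0.69 to 0.99 for Apod. Between fractions at 9 a.m. they were -1.19 to 0.0079 for Vegfa, -0.93 to 0.27 for Ptgds and -0.043 to 0.54 for Sostdc1, and at 9 p.m. -0.0099 to 0.13 for Clu, -0.11 to 0.24 for Ptgds and -0.55 to 0.13 for Epdr1. Over both times they were -0.29 to 0.36 for 1500015O10Rik and -0.39 to 0.14 for Ptgds. For the interaction they were -0.20 to 0.36 for Apoe, -0.11 to 0.068 for Enpp2, -0.23 to 0.97 for Ptgds and -2.05 to 0.31 for Vegfa. The difference of Igf2 between fractions stayed between -1.15 and -0.97.

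With the pool as a replicate block 0 of the 9 genes were called in the comparisons of fractions and in the interaction, and no call of theirs changed. Between times the replicate numbers are only shared, correlations of same-numbered libraries were -0.0066 to 0.10 in TRAP and 0.0036 to 0.06 in the supernatant, and the block left 0 calls among the 9. Without the filter on low values, under quantile normalization, without the intensity trend and with the block, Igf2 lost its call (adjusted p = 0.0777, 0.287, 0.528 and 0.227).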
